A study of Mus musculus with 29 samples.

Results

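Messenger RNAs of sterol synthesis enzymes and of the regulators that switch those enzymes on were followed through membrane and cytosol fractions of the C2C12 line, mouse myoblasts that can turn into muscle cells. The 7 listed genes were taken by symbol. For 6 of them (Srebf2, Scap, Insig1, Fdft1, Sqle and Dhcr7) poly(A) sites were counted, among 15954 genes with reads, and they held 24 of the 125369 listed sites. The RNA-seq table held 5 of the 7, all but Scap and Hmgcs1, among 11734 entries. Hmgcs1 was not analysed here.

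Cholesterol is made on the endoplasmic reticulum (ER), and most of the late enzymes of its synthesis are proteins of the ER membrane. Srebf2 encodes SREBP-2, a transcription factor made as an ER membrane precursor. Scap is its escort to the Golgi apparatus, where proteases free the active factor. Insig1 holds Scap and the precursor in the ER when sterols are plentiful, and its own gene is a SREBP target, as are those of most sterol enzymes. Fdft1 joins farnesyl units into squalene, Sqle oxidises squalene, and Dhcr7 carries out the last reduction on one branch to cholesterol.

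All 29 samples were C2C12 cells. The 16 gradient libraries covered differentiating and proliferating cells, membrane and cytosol fractions, and polysomes and monosomes, with 2 replicates in each of the 8 groups. Differentiating polysome libraries were labelled with medium of 2% horse serum, whereas differentiating monosome libraries carried the same label of 10% fetal bovine serum as all proliferating libraries. Another 8 libraries were 1 membrane and 1 cytosol fraction each of proliferating cells that were untreated or given 100 µg/ml puromycin for 0, 30 or 60 min. Puromycin ends nascent chains early and so takes ribosomes off mRNA. Single membrane and cytosol libraries of whole fractions, and single RNA-seq libraries of insoluble, membrane and cytosol fractions, also came from proliferating cells. Gradient RNA was extracted with phenol and chloroform and all other RNA with TRIzol, per the labels' protocols. Nothing in the labels tells if replicates came from separate cultures. Every p-value therefore reflects the spread among these libraries alone, and that spread may be technical. Unless stated otherwise, the gradient tests had no term for replicate number. With such a term more members were called in several comparisons, as given in the closing section on processing.

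The 3' end libraries were made with 3'READS+, which yields 1 read next to the poly(A) tail of a transcript. Levels are therefore given as counts per 1000000 reads (CPM), which do not depend on transcript length. Gradient libraries held 2964852 to 8237846 reads, puromycin libraries 5506600 to 11631401, and the whole-fraction libraries 6150000 (membrane) and 5881983 (cytosol). The 5 ER and secretory markers summed to between 993 and 4189 CPM in the 8 membrane gradient libraries, against 90.7 to 297 CPM in the 8 cytosol ones. The 7 muscle markers summed to between 1602 and 9963 CPM in the 8 differentiating libraries, against 23.1 to 254 CPM in the 8 proliferating ones. The 6 myoblast markers summed to between 1309 and 2130 CPM in differentiating libraries, against 389 to 1192 CPM in proliferating ones, and Pax7 was at 0 in all differentiating libraries. The 5 cytosol markers overlapped between fractions, at 10256 to 42166 CPM in membrane and 16293 to 66346 CPM in cytosol. The 4 markers of fat, immune and endothelial cells together reached at most 1.20 CPM. Fractions were bulk samples, so fewer cells of a type and less RNA per cell cannot be told apart.

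Promoters are shown because Srebf2, Insig1 and Dhcr7 are textbook SREBP targets and Scap controls SREBP. RefSeq promoter windows of build GRCm38.p6, from 250 bases before to 50 after an annotated start, were found for Srebf2 (1 window), Insig1 (1), Scap (2) and Dhcr7 (3). A sterol response element core, TCACNCCA, and an E-box, CACGTG, were searched on both strands. The sterol element was in the Srebf2 window, 162 bases before the start, and in 4.36% of all 32851 promoters of that length. The E-box was in the Insig1 window, in both Scap windows, which share 1 match, and in 1 of the 3 Dhcr7 windows, and in 7.15% of all promoters. The windows shown are plus strand and lie at chr15:82147096-82147125 (Srebf2), chr5:28071299-28071328 (Insig1), chr9:110333304-110333333 (Scap) and chr7:143823223-143823252 (Dhcr7). Capitals mark the match.
Srebf2: atgacgcaccaTCACCCCAtgagccgcttc
Insig1: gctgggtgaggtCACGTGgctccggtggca
Scap: cgccgccgggagCACGTGtggagggcggcg
Dhcr7: cgctgtgatgaaCACGTGgcaaaaagcagc
A match describes these letters and is not a binding site shown by the data.

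In coordinates of build mm9, which the submitters' processing notes name, the members differed in how many ends they used. Sqle had 99.9% of its reads at 1 site (chromosome 15, plus strand, position 59162748) and a second site with 0.113%. Scap (chromosome 9, plus strand, 110287450) and Dhcr7 (chromosome 7, plus strand, 151034315) had 1 site each. Srebf2 had 81.7% of its reads at a distal site (chromosome 15, plus strand, 82035809) and 18.3% at a proximal one (82035108), 701 bases upstream. Insig1 had 72.6% at a distal site (chromosome 5, plus strand, 28405202) and 25.1% at a proximal one (28403814), 1388 bases apart, with 2 minor sites of at most 1.24%. Fdft1, on the minus strand of chromosome 14, had 14 sites, of which 2 held no read. Its main site (63765240) took 73.5% of the reads, and those at 63765015 and 63763982 took 9.95% and 6.08%. No annotation of mm9 was used, so exons and UTRs at these positions are not stated.

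Membrane libraries of proliferating cells held more of 5 of the 6 mRNAs than cytosol libraries, and the largest difference was that of Sqle. The 6 genes spanned a wide range there. Mean levels in the 4 membrane libraries were 660 CPM for Sqle, 325 for Srebf2, 187 for Dhcr7, 59.0 for Scap, 54.1 for Insig1 and 17.1 for Fdft1. Dhcr7 overlapped in range with Srebf2, Scap and Insig1, and Scap overlapped with Insig1, so the order within these overlaps is not set.

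Among the regulators, Srebf2 had 482 and 309 CPM in membrane polysomes, against 36.5 and 19.7 CPM in cytosol polysomes. In monosomes it had 308 and 201 CPM in membrane, against 117 and 75.6 CPM in cytosol. Every membrane library was above every cytosol library, and Srebf2 was higher in membrane with a log2 difference of 2.37 (SE 0.26, adjusted p = 1.71e-05, edgeR quasi-likelihood test with Benjamini-Hochberg adjustment). Scap had 100.0 and 53.7 CPM in membrane polysomes, against 6.02 and 4.43 CPM in cytosol polysomes. Its monosomes gave 55.0 and 27.1 CPM in membrane, against 41.4 and 20.3 CPM in cytosol, so that the fractions separated in polysomes and overlapped in monosomes. Over both gradient parts Scap was higher in membrane by 1.89 (SE 0.43, adjusted p = 0.0037). Insig1 had 94.6 and 27.5 CPM in membrane polysomes, against 27.0 and 22.0 CPM in cytosol polysomes. In monosomes it had 64.8 and 29.3 CPM in membrane, against 26.8 and 22.1 CPM in cytosol. Its membrane values all lay above its cytosol values, 2 of them narrowly, with a log2 difference of 0.86 (SE 0.31, adjusted p = 0.0463).

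Among the enzymes, Fdft1 had 18.3 and 12.1 CPM in membrane polysomes, against 13.6 and 10.5 CPM in cytosol polysomes. In monosomes it had 22.4 and 15.7 CPM in membrane, against 10.4 and 8.84 CPM in cytosol. The fractions overlapped, and the log2 difference of 0.43 (SE 0.26, adjusted p = 0.233) did not pass the test. Sqle had 655 and 487 CPM in membrane polysomes, against 42.0 and 38.1 CPM in cytosol polysomes. In monosomes it had 893 and 605 CPM in membrane, against 89.3 and 63.6 CPM in cytosol. The lowest membrane library was far above the highest cytosol library, with a log2 difference of 3.33 (SE 0.29, adjusted p = 3.09e-06). Dhcr7 had 221 and 119 CPM in membrane polysomes, against 17.9 and 8.05 CPM in cytosol polysomes. In monosomes it had 315 and 92.6 CPM in membrane, against 54.2 and 19.7 CPM in cytosol. Its fractions did not overlap, and it was higher in membrane by 2.81 (SE 0.68, adjusted p = 0.00662).

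Of all 11176 genes tested, 23.2% were called higher in membrane, against 5 of the 6 members. Membrane values lay above all cytosol values in 4 of the 6 members, Scap and Fdft1 being the exceptions, and in 21.7% of all genes. The median log2 difference of the 6 members was 2.13, against 0.17 over all genes. Scaling by DESeq2 size factors in place of TMM moved the median of all genes by -0.18, to 2231 genes higher and 1815 lower in place of 2597 and 1290, and left 4 members called. Insig1 was the member lost, at 0.69 (adjusted p = 0.115), and its call was also lost without any 1 of 7 of the 8 libraries, membrane polysome replicate 2 being the exception. Its difference was smallest, 0.26, without membrane polysome replicate 1.

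**Figure D1:**
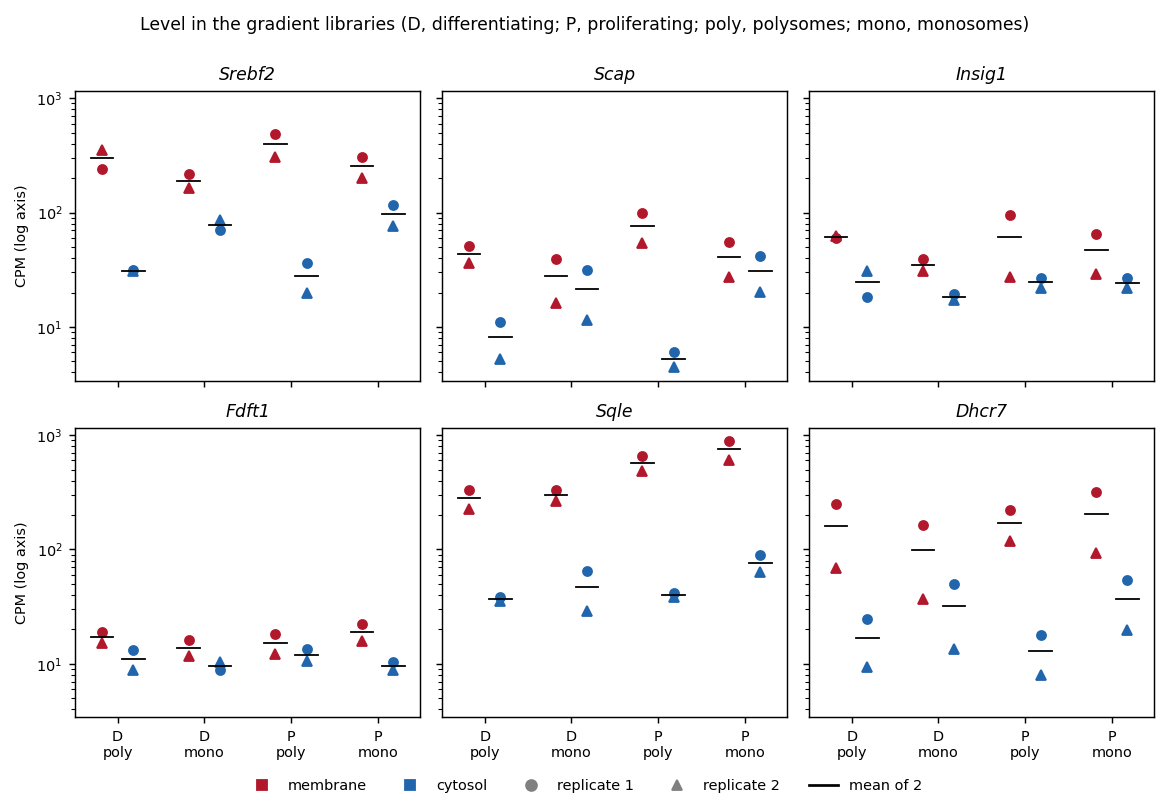
Level of each gene in the 16 gradient libraries in CPM on a common log axis, with membrane (red) left of cytosol (blue), circles for replicate 1, triangles for replicate 2 and bars for the mean of 2. Sqle, Srebf2 and Insig1 are separated in each of the 4 pairs of groups, Insig1 only narrowly in polysomes of proliferating cells. Srebf2 has means of 395 CPM in membrane and 28.1 CPM in cytosol polysomes of proliferating cells. Fdft1 stays between 8.84 and 22.4 CPM in all libraries.

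In differentiating cells 3 of the 6 mRNAs, Srebf2, Sqle and Dhcr7, were called higher in membrane than in cytosol, against 14.2% of all genes. Srebf2 had 242 and 352 CPM in membrane polysomes, against 31.6 and 30.8 CPM in cytosol polysomes. Its monosomes gave 216 and 163 CPM in membrane, against 70.8 and 85.7 CPM in cytosol, again without overlap, and the log2 difference was 1.95 (SE 0.26, adjusted p = 0.000178). Sqle had 334 and 226 CPM in membrane polysomes, against 38.2 and 35.5 CPM in cytosol polysomes. With 332 and 264 CPM in membrane monosomes, against 64.7 and 29.0 CPM in cytosol monosomes, its fractions did not overlap, and it was higher in membrane by 2.50 (SE 0.28, adjusted p = 5.53e-05). Dhcr7 had 251 and 68.3 CPM in membrane polysomes, against 24.5 and 9.35 CPM in cytosol polysomes. Its monosomes gave 162 and 36.9 CPM in membrane, against 50.4 and 13.5 CPM in cytosol. The 2 fractions of Dhcr7 overlapped through these monosomes, and its log2 difference was 2.12 (SE 0.66, adjusted p = 0.0413).

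Scap, Insig1 and Fdft1 did not pass in differentiating cells in the main edgeR fit. With a term for replicate number, edgeR called Scap (adjusted p = 9.48e-06) and Insig1 (adjusted p = 0.000638). The labels do not say that equal replicate numbers belong together. Scap lay between 16.2 and 50.6 CPM in membrane, against 5.27 and 31.6 CPM in cytosol (log2 difference 1.06, SE 0.42, adjusted p = 0.0936). Insig1 lay between 31.0 and 62.9 CPM in membrane, against 17.2 and 31.1 CPM in cytosol (0.84, SE 0.32, adjusted p = 0.0798), and Fdft1 lay between 11.7 and 19.0 CPM in membrane, against 8.84 and 13.2 CPM in cytosol (0.27, SE 0.27, adjusted p = 0.531). All 3 had overlapping fractions. Sqle and Srebf2 were the 2 members with every membrane value above every cytosol value, as in 14.1% of all genes. The call of Dhcr7 was lost without membrane polysome replicate 1 (1.44), membrane monosome replicate 1 (1.47), cytosol monosome replicate 2 (1.80) or cytosol polysome replicate 2 (1.82), and Scap passed without cytosol monosome replicate 1 (1.51, adjusted p = 0.045). DESeq2 size factors also ended the call of Dhcr7 (2.02, adjusted p = 0.0559).

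**Figure D2:**
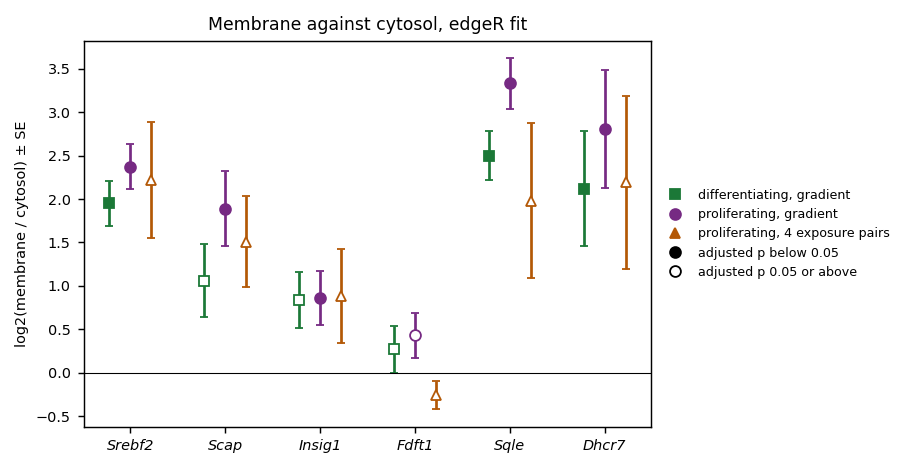
Log2 difference between membrane and cytosol from the edgeR fits, with SE, for differentiating cells (squares) and proliferating cells (circles) of the gradient experiment and for the 4 exposure pairs of the puromycin series (triangles). Filled symbols have an adjusted p below 0.05. Sqle reaches 3.33 in proliferating cells and Fdft1 lies nearest to 0, at 0.27, 0.43 and -0.26.

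Between cell states, Sqle fell in the membrane fraction of differentiating cells and no other member was called. Its 4 membrane libraries lay between 226 and 334 CPM in differentiating cells, against 487 to 893 CPM in proliferating cells. The states did not overlap, and the log2 difference was -0.99 (SE 0.27, adjusted p = 0.0168), in a comparison where 13.6% of all genes were called lower. TMM gave 1072 genes higher and 1520 lower there, and DESeq2 size factors 1330 and 1227. The call of Sqle was lost without any 1 of 6 of the 8 libraries, differentiating membrane polysome replicate 1 and monosome replicate 1 being the exceptions, with log2 differences between -1.20 and -0.74. In cytosol no member was called by edgeR, by DESeq2 or at an unadjusted p under 0.05, against 14.4% of all genes called. Sqle averaged 41.9 CPM in differentiating and 58.3 CPM in proliferating cytosol, with overlap. Muscle markers were higher in all differentiating libraries, as given above, and their part in the result was not tested. State and labelled serum cannot be told apart in the polysome libraries.

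The difference between fractions was itself compared between states. For Sqle it was smaller in differentiating cells by 0.83 on the log2 scale (-0.83, SE 0.38), which did not pass (adjusted p = 0.82). In the main edgeR fit no gene of 11176 passed (0%). An unadjusted p under 0.05 was reached by 669 genes, Sqle being the only member among them. The DESeq2 test gave 14 genes and no member. With a term for replicate number, edgeR called 514 genes, Sqle among them (-0.81, adjusted p = 0.0367).

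In the cytosol of proliferating cells Srebf2 and Scap took a lower share of the polysome reads than of the monosome reads. CPM are shares within a library, and how each mRNA was divided between the gradient parts was not measured. Srebf2 had 36.5 and 19.7 CPM in cytosol polysomes, against 117 and 75.6 CPM in cytosol monosomes, and was lower in polysomes by a log2 difference of -1.86 (SE 0.37, adjusted p = 0.00322). Scap had 6.02 and 4.43 CPM in polysomes, against 41.4 and 20.3 CPM in monosomes (-2.64, SE 0.63, adjusted p = 0.00912). Neither gene overlapped between gradient parts, and 12.8% of all genes were called lower in that comparison. Sqle had 42.0 and 38.1 CPM in cytosol polysomes, against 89.3 and 63.6 CPM in monosomes, also without overlap, but its difference of -1.01 (SE 0.38, adjusted p = 0.0695) did not pass by edgeR and did by DESeq2 (adjusted p = 0.0295). Dhcr7 had 17.9 and 8.05 CPM in cytosol polysomes, against 54.2 and 19.7 CPM in monosomes, and did not pass either. Fdft1 and Insig1 averaged 12.0 and 24.5 CPM in cytosol polysomes, against 9.63 and 24.5 CPM in monosomes. The call of Srebf2 was lost without polysome replicate 2 (-1.49, adjusted p = 0.0525), and that of Scap without that library (-2.44) or monosome replicate 1 (-1.99).

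On membranes neither Srebf2 nor Scap was called between gradient parts. In proliferating cells Srebf2 had 482 and 309 CPM in membrane polysomes, against 308 and 201 CPM in membrane monosomes (log2 difference 1.01, SE 0.36, adjusted p = 0.217). Scap had 100.0 and 53.7 CPM in membrane polysomes, against 55.0 and 27.1 CPM in membrane monosomes (1.29, SE 0.58, adjusted p = 0.336). Neither passed: edgeR and DESeq2 called no member there, 2 had an unadjusted p under 0.05, and edgeR called 0.796% of all genes, as 40 higher and 49 lower with TMM and 18 and 73 with DESeq2 size factors. The difference between the fractions in this respect did pass. Polysome against monosome was higher in membrane than in cytosol by 2.87 for Srebf2 (SE 0.51, adjusted p = 0.00425) and by 3.93 for Scap (SE 0.85, adjusted p = 0.0124), in a comparison where 6.19% of all genes were called higher. The call of Scap was lost without cytosol polysome replicate 2 (3.67), cytosol monosome replicate 1 (3.29) or membrane monosome replicate 2 (3.54).

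In differentiating cells Srebf2 was again called lower in cytosol polysomes than in cytosol monosomes, where gradient part and labelled serum cannot be told apart. It had 31.6 and 30.8 CPM in cytosol polysomes, against 70.8 and 85.7 CPM in cytosol monosomes (-1.63, SE 0.37, adjusted p = 0.00657), where 11.3% of all genes were called lower. For all genes TMM gave 1409 higher and 1264 lower there, and DESeq2 size factors 1124 and 1537. Scap had 11.1 and 5.27 CPM in cytosol polysomes, against 31.6 and 11.5 CPM in monosomes, which did not pass by edgeR (-1.65, SE 0.61, adjusted p = 0.0651) and did by DESeq2 (adjusted p = 0.0202). In membrane no member was called by either tool or had an unadjusted p under 0.05, against 3.95% of all genes called, as 229 higher and 213 lower with TMM and 134 and 253 with DESeq2 size factors. Polysome against monosome was higher in membrane than in cytosol by 2.25 for Srebf2 (SE 0.51, adjusted p = 0.0235), against 3.63% of all genes, and by 2.32 for Scap, which did not pass (SE 0.84, adjusted p = 0.168). The call of Srebf2 in this last comparison was lost without any 1 of 6 of the 8 libraries, cytosol monosome replicate 1 and membrane polysome replicate 1 being the exceptions, at 2.04 to 2.42. In cytosol it was lost without polysome replicate 2 (-1.48), and Scap passed there without monosome replicate 2 (-2.16, adjusted p = 0.0396).

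With puromycin the members had higher cytosol levels and all but Fdft1 had lower membrane to cytosol ratios, in a series of 1 library for each exposure and fraction. Srebf2 had 529, 518, 463 and 449 CPM in the membrane of untreated, 0, 30 and 60 min cells, against 44.0, 38.2, 204 and 213 CPM in cytosol. Its ratio was 12.0 and 13.6 in the unexposed pairs (untreated and 0 min) and 2.27 and 2.11 at 30 and 60 min. Scap had 19.8, 21.9, 21.8 and 14.5 CPM in membrane, against 3.81, 2.62, 9.82 and 11.2 CPM in cytosol. The ratio of Scap was 5.19 and 8.37 without exposure and 2.22 and 1.29 with it. Insig1 had 51.1, 64.0, 34.0 and 66.1 CPM in membrane, against 18.0, 10.7, 40.9 and 47.0 CPM in cytosol. Its membrane level followed no order with exposure, and its ratio of 0.831 at 30 min was the only one below 1 outside Fdft1.

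Fdft1 had 15.4, 15.0, 19.4 and 20.1 CPM in membrane, against 15.3, 16.5, 20.0 and 22.4 CPM in cytosol. Its ratio stayed between 0.899 and 1.01 throughout. Sqle had 835, 682, 393 and 365 CPM in membrane, against 65.6, 44.7, 269 and 259 CPM in cytosol. Its ratio was 12.7 and 15.3 without exposure and 1.46 and 1.41 with it. Dhcr7 had 210, 275, 170 and 187 CPM in membrane, against 12.7, 13.2, 107 and 132 CPM in cytosol, and ratios of 16.5, 20.8, 1.58 and 1.42. The exposed ratios of Sqle, Dhcr7, Srebf2, Scap and Insig1 all lay below their unexposed ones, as in 26.9% of all genes. All 6 members had higher cytosol levels in both exposed libraries than in both unexposed ones, as 31.8% of all genes did. Membrane levels were lower in both exposed libraries for Sqle, Srebf2 and Dhcr7, as for 18.6% of all genes. The ratio stayed above 1 in all 4 pairs for Sqle, Srebf2, Scap and Dhcr7, as for 34.5% of all genes.

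**Figure D3:**
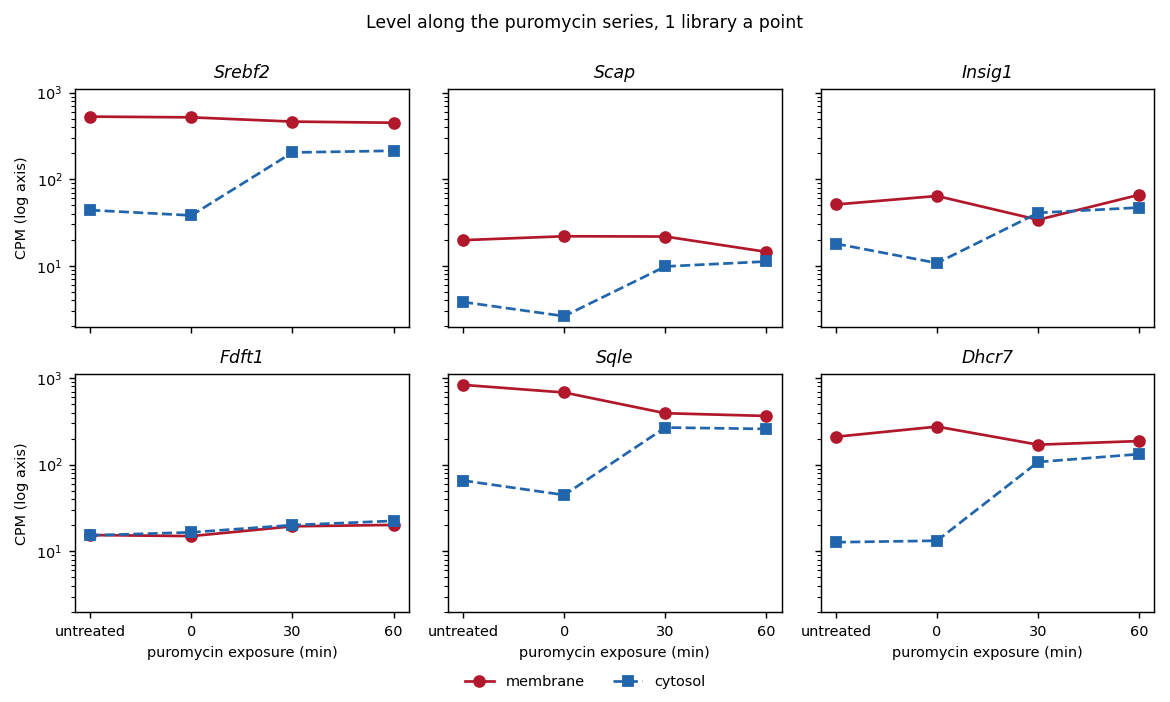
Level of each gene in the puromycin series in CPM on a common log axis, against exposure (untreated, 0, 30 and 60 min), with membrane as red circles and cytosol as blue squares and 1 library a point. The cytosol lines of Sqle, Srebf2 and Dhcr7 step up between 0 and 30 min while their membrane lines stay above them, and the lines of Fdft1 run together between 15.0 and 22.4 CPM.

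The exposure term by fraction, per 30 min with untreated cells as 0 min, was -2.04 for Dhcr7 (SE 0.44), -1.84 for Sqle (SE 0.41), -1.45 for Srebf2 (SE 0.31), -1.25 for Scap (SE 0.26), -0.94 for Insig1 (SE 0.44) and -0.09 for Fdft1 (SE 0.19). None passed: edgeR called no gene of 9919 (0%), with an adjusted p of 0.11 for the first 4. An unadjusted p under 0.05 was found for 2535 genes, those 4 members among them. The DESeq2 test called these 4 lower, within a total of 1192 genes (12.3%). With exposed pairs set against unexposed ones, edgeR called 5 members lower, Fdft1 being the exception, against 20.5% of all genes. That coding took the untreated and 0 min pairs as replicates of each other, and the 30 and 60 min pairs likewise. Its adjusted p-values therefore rest on different exposures standing in for replicates. The differences were then -3.72 for Dhcr7 (adjusted p = 1.11e-09), -3.36 for Sqle (adjusted p = 7.78e-10), -2.63 for Srebf2 (adjusted p = 9.67e-09), -2.02 for Scap (adjusted p = 0.00073) and -1.99 for Insig1 (adjusted p = 0.000287). With the term per 30 min and 1 pair left out, each of these 5 members stayed negative. Values ran from -3.65 to -1.88 for Dhcr7, -3.35 to -1.7 for Sqle and -2.59 to -1.35 for Srebf2. Scap ran from -1.66 to -1.12 and Insig1 from -2.39 to -0.62. Whether they passed, and how many of all genes did, depended on the pair left out. Without the 30 min or the 60 min pair, only the untreated and 0 min pairs stood in as replicates.

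Averaged over the 4 pairs, no member was called between membrane and cytosol by edgeR, against 25.5% of all genes. That fit had no term for the change of the fraction difference with exposure, so this change entered its spread. The non-calls therefore do not measure the fraction difference of unexposed cells. Log2 differences were 2.22 for Srebf2 (SE 0.67, adjusted p = 0.0705), 2.19 for Dhcr7 (SE 1.00, adjusted p = 0.159), 1.98 for Sqle (SE 0.89, adjusted p = 0.155) and 1.51 for Scap (SE 0.52, adjusted p = 0.0892). Insig1 stood at 0.88 (SE 0.54) and Fdft1 at -0.26 (SE 0.16). At an unadjusted p under 0.05 stood Srebf2 and Scap, while the DESeq2 test called these 2 along with Sqle and Dhcr7, against 41.8% of all genes. The effect of exposure over both fractions was called for no member by either tool or at an unadjusted p under 0.05, and for 0.423% of all genes by edgeR.

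Insig1 was the one member of the 3 with a site pair whose poly(A) site use was called between fractions, and that was in the puromycin series. Its distal site took 76.4%, 78.6%, 84.5% and 85.8% of the reads of its main pair in the membrane of untreated, 0, 30 and 60 min cells, against 57.7%, 59.7%, 64.7% and 66.2% in cytosol. All 4 membrane shares lay above all 4 cytosol shares. Distal against proximal was higher in membrane by 1.45 on the log2 scale (SE 0.25, adjusted p = 8.14e-06), against 8.06% of all 4717 site pairs called higher. That edgeR fit took the 4 exposure pairs as replicates of the fraction difference, so its adjusted p rests on different exposures standing in for replicates. Counting error alone gave 95% Wilson intervals of 72.8% to 79.7% in membrane and 47.8% to 67.1% in cytosol for untreated cells.

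In the gradient libraries no such difference was called for Insig1. In differentiating cells its distal share was 59.9% to 91.4% in membrane (median 78.9%), against 73.3% to 94.1% in cytosol (median 81.8%), a log2 difference of -0.42 (SE 0.60, adjusted p = 0.971). In proliferating cells it was 64.5% to 82.2% in membrane (median 75.6%), against 62.7% to 80.6% in cytosol (median 64.7%), a difference of 0.43 (SE 0.56, adjusted p = 0.912). The whole-fraction libraries gave 84.4% in membrane, against 84.9% in cytosol, with intervals of 78.0% to 89.2% in membrane and 75.8% to 90.9% in cytosol. How far the gradient and puromycin experiments differ was not tested.

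No difference in site use between fractions was called for Srebf2 or Fdft1. The distal share of Srebf2 ran from 85.2% to 88.9% in membrane, against 86.3% to 90.9% in cytosol, along the puromycin series (-0.07, SE 0.16, adjusted p = 0.916). In the gradient libraries it had medians of 77.7% in membrane, against 79.7% in cytosol, in differentiating cells (-0.15, SE 0.29) and 72.1% in membrane, against 75.9% in cytosol, in proliferating cells (-0.35, SE 0.29). Fdft1, with few reads at its distal site, differed by 0.20 (SE 0.40) in the puromycin series, 1.02 (SE 0.69) in differentiating and 0.58 (SE 0.62) in proliferating cells, and none passed. No member was called or had an unadjusted p under 0.05 in the gradient tests, in which edgeR called 0.022% of 4554 pairs in differentiating and 0.527% in proliferating cells.

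**Figure D4:**
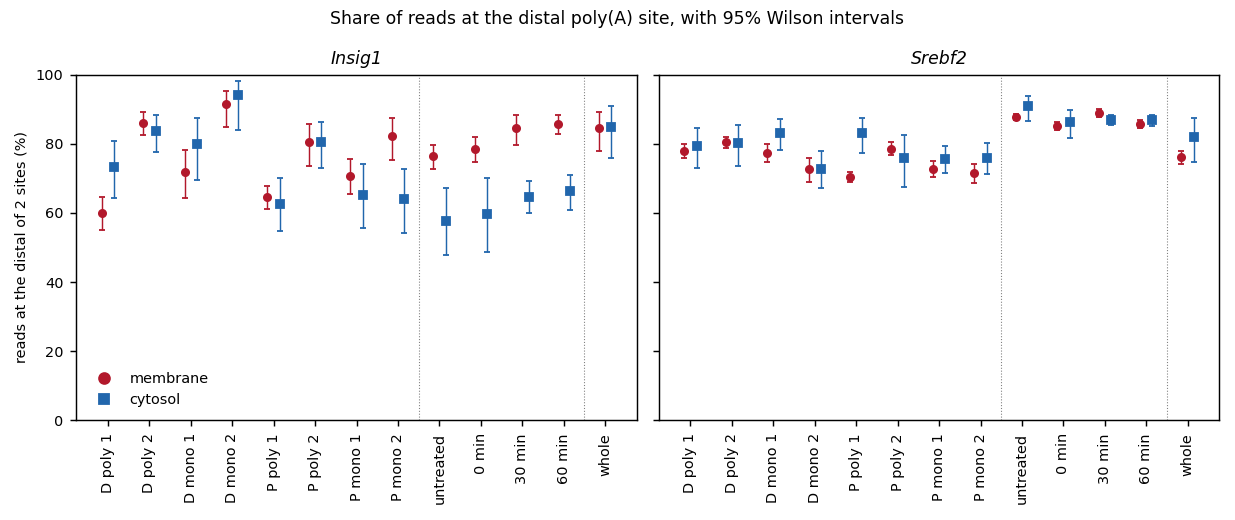
Percent of reads at the distal of 2 poly(A) sites of Insig1 and Srebf2 in each library, membrane (red circles) beside cytosol (blue squares), with 95% Wilson intervals that cover counting error only. For Insig1 the membrane shares of the puromycin series, 76.4% to 85.8%, all lie above the cytosol shares, 57.7% to 66.2%, which the other libraries do not show.

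Whole fractions and RNA-seq gave a further view of the fractions, with 1 library each and so no test, and intervals that cover counting error only. In whole fractions Dhcr7 had 115 CPM in membrane and 8.67 CPM in cytosol, a log2 ratio of 3.73 (95% interval 3.33 to 4.14). Srebf2 had 302 CPM in membrane and 24.3 CPM in cytosol (3.63, 3.39 to 3.88), and Sqle 501 CPM in membrane and 45.2 CPM in cytosol (3.47, 3.29 to 3.65). These 3 had the largest ratios here and in the gradient libraries of proliferating cells. Scap followed with 57.4 CPM in membrane and 10.2 CPM in cytosol (2.49, 2.10 to 2.89), then Insig1 with 26.7 CPM in membrane and 15.3 CPM in cytosol (0.80, 0.43 to 1.17). Fdft1 had 8.78 CPM in membrane and 8.84 CPM in cytosol (-0.01, -0.56 to 0.54). These whole-fraction ratios are of CPM without TMM scaling, unlike the gradient differences. With TMM scaling they were 3.49 for Dhcr7, 3.39 for Srebf2, 3.23 for Sqle, 2.25 for Scap, 0.56 for Insig1 and -0.25 for Fdft1.

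RNA-seq reads had been counted in the alternative and the constitutive part of 3' UTRs. For Srebf2 the alternative part took 48.0% of the reads in the insoluble fraction, which the labels do not describe further, 47.0% in membrane and 41.9% in cytosol. In CPM of all counted reads, both parts of Srebf2 together gave 436 in the insoluble fraction, 492 in membrane and 39.0 in cytosol. Sqle gave 91.5 in insoluble, 158 in membrane and 17.7 in cytosol, and Insig1 187 in insoluble, 292 in membrane and 87.0 in cytosol. Dhcr7, with no read in an alternative part, gave 58.6 in insoluble, 72.8 in membrane and 3.62 in cytosol. For all 4 genes the order was membrane, insoluble, cytosol, with membrane over cytosol log2 ratios of 4.33 for Dhcr7 (95% interval 3.62 to 5.04), 3.66 for Srebf2 (3.44 to 3.88), 3.16 for Sqle (2.83 to 3.50) and 1.75 for Insig1 (1.59 to 1.90). The insoluble fraction was below membrane by a smaller log2 ratio for Srebf2 (-0.17, interval -0.26 to -0.09) than for Sqle (-0.79, -0.96 to -0.62).

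Fdft1 stood apart between the assays, and its RNA-seq value is uncertain. Its alternative part held 4605 reads in insoluble, 16770 in membrane and 566 in cytosol, and its constitutive part 402, 972 and 375 reads in the same fractions. The membrane over cytosol log2 ratio was 3.67 (95% interval 3.58 to 3.77) over both parts and 0.81 (0.64 to 0.98) over the constitutive part alone. In the RefSeq annotation of GRCm38.p6 the end of Fdft1 overlaps that of Ctsb, the lysosomal protease cathepsin B. Ctsb gave 772.5 CPM in insoluble, 1844 in membrane and 87.9 in cytosol. Whether the counting used strand is not given in the sources used here, and the part of Ctsb reads in the Fdft1 count was not tested.

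Other enzymes of the pathway were taken from a list chosen with earlier results of these data known, as was the list after it. Of 18 further sterol and mevalonate enzymes, all tested, 6 were higher and none lower in membrane than in cytosol of differentiating cells, and 9 higher and 1 lower in proliferating cells. Of all 11176 genes, 14.2% were higher and 614 lower in differentiating cells, and 23.2% higher and 1290 lower in proliferating cells. The list's median log2 difference was 0.70 in differentiating cells, against 0.07 over all genes, and 1.21 in proliferating cells, against 0.17 over all genes. Cyp51, the lanosterol demethylase, averaged 414 CPM in membrane and 38.6 CPM in cytosol of proliferating cells and was higher by 3.21 (SE 0.53, adjusted p = 0.000458) and Ebp, the sterol isomerase, by 3.77 (SE 0.54, adjusted p = 0.000163). Sc4mol, the older symbol of Msmo1 and a C4 methyl oxidase, was higher by 2.35 (SE 0.39, adjusted p = 0.000438). Mvd, a soluble decarboxylase of the mevalonate pathway, averaged 62.4 CPM in membrane and 91.9 CPM in cytosol (-0.84, SE 0.54, adjusted p = 0.252). The enzyme that was lower, Ggps1, a soluble geranylgeranyl diphosphate synthase (-1.20, adjusted p = 0.00866), was named after its value was seen.

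Of 22 further genes of SREBP control and sterol handling, all had reads and 21 were tested. In membrane against cytosol 12 were higher and none lower in differentiating cells, against 14.2% of all genes higher, and 16 higher and none lower in proliferating cells, against 23.2% of all genes higher. The median log2 difference was 1.41 in differentiating cells, against 0.07 over all genes, and 1.88 in proliferating cells, against 0.17 over all genes. Faf2, which takes part in ER protein degradation, was higher in membrane of proliferating cells by 1.43 (SE 0.25, adjusted p = 0.000562). Npc2, a lysosomal cholesterol carrier, was higher by 1.34 (SE 0.41, adjusted p = 0.0203). Vapa, a tail-anchored ER protein, averaged 121 CPM in membrane and 119 CPM in cytosol (0.09, or -0.09 with DESeq2 size factors, SE 0.21, adjusted p = 0.771). Ubxn8, which takes part in ER protein degradation, was higher by 1.99 (SE 0.23, adjusted p = 2.51e-05), and it was the only gene of either list called for site use, in the puromycin series (distal against proximal 0.98, SE 0.34, adjusted p = 0.0483).

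Along the puromycin series edgeR called no gene of either list for the exposure term by fraction, as it called none of all genes. The DESeq2 test called 9 of 18 enzymes and 12 of 21 genes of SREBP control lower and none of either list higher, against 12.3% of all genes called in either direction. The membrane to cytosol ratio of Cyp51 was 24.6 and 23.7 in untreated and 0 min cells and 1.18 and 1.15 at 30 and 60 min. Mvd (0.714, 0.611, 1.11 and 1.13 in the same order) and Vapa (0.617, 0.736, 0.596 and 0.762) began below 1. Cyp51 was high before exposure and low after it, as Sqle and Dhcr7 were, and Mvd and Vapa were not.

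Levels of Srebf2, Sqle and Dhcr7 ran together over the 24 gradient and puromycin libraries, with Pearson's r of 0.92 for each of the 3 pairs on log2(CPM + 1). Fdft1 was least like the others, with r from 0.18 (Scap) to 0.67 (Dhcr7). These libraries share fractions and cells, so r largely repeats the fraction difference and is given as a description. Among genes with a mean of at least 10 CPM the nearest to Srebf2 were Heg1 (0.978), Ltbp3 (0.977) and H2-K1 (0.976), and to Sqle Ggcx (0.974), Lpar1 (0.965) and Itgav (0.965). Dhcr7 was nearest to Atp6v0a1 (0.966) and Sc4mol (0.952), and Scap to Tpcn1 (0.931), Sdc4 (0.923) and Abca3 (0.920). Insig1 was nearest to Tmem50a (0.866), Il34 (0.857) and Slc38a7 (0.854), and Fdft1 to Pgm3 (0.857), Car5b (0.850) and Nsdhl (0.843), a sterol enzyme of the list above.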

How the data were processed

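Per poly(A) site, the deposited values were the authors' read counts, 1 column per 3' end library, and the deposited RNA-seq table held read counts in alternative and constitutive 3' UTR parts, per the file headers. Tools in the submitters' processing notes were cutadapt, Bowtie2 and STAR 2.5.2, with mm9 as build and no roles given. Reads were summed per symbol after 651 positions listed under several symbols, with 0.56% of reads, were left out. Low counts were removed by filterByExpr and TMM set the scale. The test was edgeR's robust quasi-likelihood F test (version 4.0.16, R 4.3.3), adjusted by Benjamini-Hochberg over all genes or pairs, with 0.05 as threshold. The gradient model gave each of the 8 groups a mean and used all 16 libraries, and fractions were averaged over gradient parts. An SE is the size of the log2 difference over the root of its F. A site pair joined the most abundant 2 sites of a gene, at most 10 kb apart, with a mean of at least 10 reads and at least 5% in the rarer, and its model had a term per library. Puromycin models had a term per exposure pair, except the model of exposure over both fractions. That model had a term for fraction and took the membrane and cytosol libraries of an exposure as separate. The gradient gene model and the gradient site-pair model were tested on simulated data, for membrane against cytosol in proliferating cells. The puromycin models were not tested in this way. Alternatives were a replicate block, DESeq2 1.42.0 size factors and test, no low-count filter, only sites with at least 5% of a gene's reads, total counts as library sizes for site pairs, only the groups compared, exposed against unexposed coding, other pair limits, and each library left out. Fold changes are given for all members between fractions, and in other comparisons for members with an unadjusted p under 0.05. All members are named, and of each pathway list the 5 genes with the highest mean CPM plus any called for site use or for an interaction of fraction with state or puromycin. Some genes that this rule or the likeness of pattern would name are not reported here. Members and lists were chosen with earlier results of these data known.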

Additional observations from a re-analysis of the deposited data

Results flagged for a closer look

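In 3 results the polysome against monosome difference was not the same in membrane as in cytosol, by a test of that difference itself. In differentiating cells it was higher in membrane by 2.25 on the log2 scale for Srebf2, and in proliferating cells by 2.87 for Srebf2 and 3.93 for Scap. The call in differentiating cells was lost without any 1 of 6 of the 8 libraries, and labelled serum there differed between gradient parts. The call of Scap was lost without any 1 of 3 of the 8 libraries. In proliferating cells Srebf2 averaged 395 ± 122 CPM in polysomes and 254 ± 75.4 CPM in monosomes of the membrane fraction, and 28.1 ± 11.9 CPM in polysomes and 96.4 ± 29.4 CPM in monosomes of the cytosol (SD, n = 2 each). Scap averaged 76.9 ± 32.8 CPM in polysomes and 41.0 ± 19.7 CPM in monosomes of the membrane fraction, and 5.23 ± 1.12 CPM in polysomes and 30.9 ± 14.9 CPM in monosomes of the cytosol (SD, n = 2 each). Of these within-fraction differences, those in cytosol passed the test and those in membrane did not. The difference between fractions was also called higher in proliferating cells for 8 of 21 further genes of SREBP control, with 1 lower. It was called higher for 2 of 18 further enzymes, against 6.19% of all genes. In differentiating cells 5 of the 21 and 1 of the 18 were called higher, against 3.63% of all genes.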

How the results depend on the processing

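Counts of all genes called in the gradient comparisons were higher with a replicate block. Same-numbered libraries deviated together (r from 0.469 to 0.725 over genes), but with 2 numbers and no word in the labels the numbers are not taken as pairs. With the block as a term, membrane against cytosol gave 4850 genes with 5 members in differentiating cells and 6273 genes in proliferating cells. Scap (1.12, adjusted p = 9.48e-06) and Insig1 (0.83, adjusted p = 0.000638) were among the members called in differentiating cells. The state by fraction test with the block gave 514 genes with 1 member, Sqle (-0.81, adjusted p = 0.0367), which had not passed without it. Polysome against monosome gave 3315 genes with 4 members (differentiating membrane), 5158 with 3 (differentiating cytosol), 2578 with 2 (proliferating membrane) and 5360 with 4 (proliferating cytosol), and its difference between fractions 2089 with 3 in differentiating and 3180 with 4 in proliferating cells. Differentiating against proliferating gave 4394 genes with 2 members in membrane and 3208 with 1 in cytosol, and site use 77 pairs in differentiating and 279 in proliferating cells.

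The DESeq2 test gave 14 genes for state by fraction, 940 in differentiating and 370 in proliferating membrane for polysome against monosome, 2 members in differentiating cytosol, 790 genes in differentiating and 1262 in proliferating cells for the difference between fractions, and in the puromycin series 4148 genes with 4 members between fractions, 1192 with 4 for exposure by fraction and 115 for exposure. With only the groups compared, polysome against monosome gave 0 genes in both membrane comparisons, 1389 in differentiating cytosol and 224 for the difference between fractions in differentiating cells. Exposed against unexposed coding gave 3911 genes with 5 members by fraction and 9 for exposure, no filter gave 64 for exposure, and pairs of at least 50 reads gave 0 in differentiating cells. The cause of these changes was not tested. State by fraction uses all 8 groups, so a fit of the groups compared alone is the same fit. Scaling by size factors also moved the median of all genes by -0.11 to -0.18 in both fraction comparisons and in 3 of the 4 polysome comparisons, and by 0.13 between states in membrane.

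Leaving out 1 library gave, in membrane against cytosol, 1563 to 1830 genes and 2 to 4 members in differentiating and 3029 to 3498 and 4 to 5 in proliferating cells. Polysome against monosome gave 10 to 84 (differentiating membrane), 1493 to 1776 and 0 to 2 (differentiating cytosol), 0 to 25 (proliferating membrane) and 1262 to 1720 and 0 to 2 (proliferating cytosol). Its difference between fractions gave 184 to 317 and 0 to 1 in differentiating, and 387 to 623 and 1 to 2 in proliferating cells. Differentiating against proliferating gave 1343 to 2141 and 0 to 1 in membrane, and 803 to 1489 in cytosol. Leaving out 1 exposure pair gave 0 genes between fractions, 0 to 2611 and 0 to 5 by fraction, and 0 to 1 for exposure. Site pairs gave 0 to 1 (differentiating), 5 to 15 (proliferating) and 272 to 418 (puromycin), where Insig1 kept its call at 1.38 to 1.52. Of the site differences that had not passed, the sign turned for Insig1 (-1.05 to 0.17) and Srebf2 (-0.37 to 0.06) in differentiating cells, Fdft1 in proliferating cells (-0.05 to 1.02), and Fdft1 (-0.06 to 0.47) and Srebf2 (-0.22 to 0.03) in the puromycin series. No other fold change that the text gives for a member turned sign under the alternatives run. Fdft1 had few reads, 52 to 54 in the whole-fraction libraries, and single libraries there, in RNA-seq and per exposure limit what can be tested.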
